A study of Drosophila melanogaster with 8 samples.

Results

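The outermost 100 kb of chromosome arms X, 2L, 3L and 3R were examined window by window in a study of trimethylated lysine 9 of histone H3 (H3K9me3) in Drosophila melanogaster ovaries. The tips were taken as all 1 kb windows within the first 100 kb of the X, 2L and 3L scaffolds and within the last 100 kb of the 3R scaffold of genome build dm3. That gave 400 of the 168744 windows listed for the whole genome, 100 in each tip, and 324 of the 400 held enough input to be tested. The study consists of 8 ChIP-seq (chromatin immunoprecipitation and sequencing) libraries from ovaries of adult flies. Each fly carried the MTgal4 driver, which is used to express hairpins in the female germ line, with the hairpin shW, taken here as the control, or with the hairpin shSov, named for the gene sov. The title of the series ties Sov to H3K9me3 deposition in germ cells. Each genotype had 2 libraries made with anti-H3K9me3 (Abcam, ab8988) and 2 input libraries from lysate kept back before the immunoprecipitation. All stocks were kept at 24 °C and all flies were fed yeast for 2 to 3 days. The labels give no age, and they do not say that replicates came from separate flies, so p-values measure only the spread between these samples. Ovaries also hold somatic cells in which a germline driver is not active. In such bulk samples fewer cells of a type and less H3K9me3 per cell cannot be told apart. The level of Sov was not analysed here.

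Drosophila chromosomes end in arrays of telomeric retrotransposons, followed on the inner side by telomere-associated sequence, a repeat array, and then by unique sequence with genes. Telomere-associated sequence is packed as heterochromatin and silences reporter genes inserted in it. In the germ line it can carry H3K9me3 bound by the protein HP1a and is a source of piRNAs, the small RNAs that silence transposons. Laboratory stocks are known to differ at their chromosome ends, because a chromosome that has lost its terminal DNA can be transmitted and capped. For this reason the input, which measures the DNA present, was read first at each tip. In the RefSeq Release 6 gene table the genes nearest the ends are SteXh:CG42398, CG17636 and RhoGAP1A on X. On 2L they are l(2)gl, a regulator of epithelial polarity and tumour suppressor, Ir21a, a receptor of the ionotropic family, and Cda5, a chitin deacetylase. On 3L they are mthl8, a member of the methuselah-like receptor family, CG43149 and Lsp1gamma, which encodes a larval serum protein. On 3R they are Map205, a microtubule-associated protein, mod, a DNA-binding nucleolar protein, and krz, a non-visual arrestin. That table is of another build, so these names give only the order of the genes and no gene was assigned to a window.

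Sequencing depth differed between the libraries. The inputs held 13688640 and 9760028 reads in shW and 27962050 and 26348096 in shSov, and the median tested window held 77 to 210 input reads. The ChIP libraries held 4208693 and 6383061 reads in shW and 16514896 and 5847945 in shSov, or 21, 38, 110 and 38 reads in the median tested window. Values are RPKM, that is reads scaled to the length of the window and to the total reads of the library. They are relative, since no spiked-in chromatin is described: a fall in some regions raises the others. Counts of the 2 replicates of a group over the tip windows differed by 1.14 to 2.45 in chi-square per degree of freedom, and the largest value was that of the shW ChIP libraries.

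All 4 tips began with windows in which no library held a read. The run without reads was 6 windows long on X, 5 on 2L, 18 on 3L and 7 on 3R, and 54 of the 400 tip windows held no read in any library. The first reads were at 6001 to 7000 on X, 5001 to 6000 on 2L, 18001 to 19000 on 3L and 27898001 to 27899000 on 3R, where the scaffold ends at 27905053. The tip of 2R, used for comparison, had no such run, and 99 of its 100 windows were tested. In windows without reads, repeats whose reads were not placed and DNA that was missing from all stocks cannot be told apart. The numbers of tested windows were 76 on X, 91 on 2L, 77 on 3L and 80 on 3R.

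**Figure D1:**
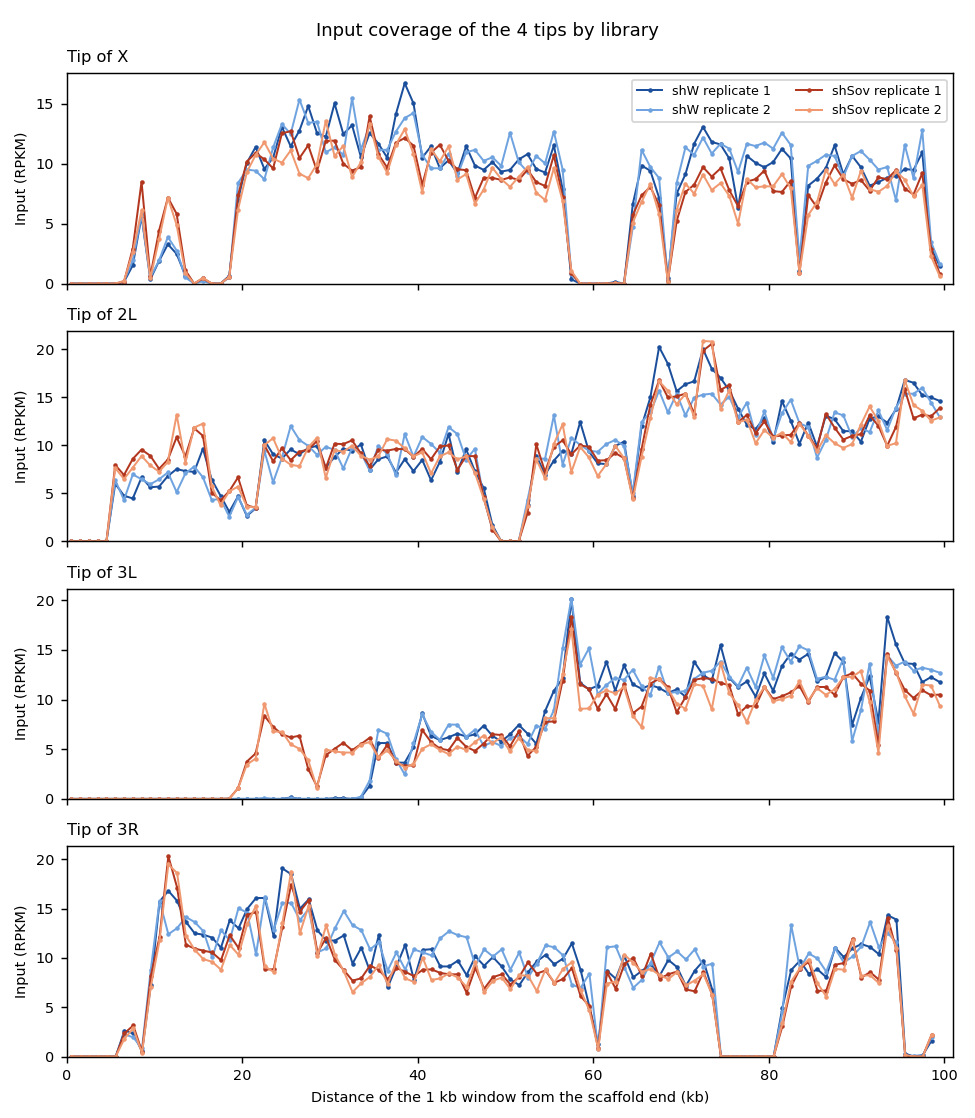
Input RPKM of each 1 kb window against its distance from the scaffold end in kb, 1 panel per tip and 1 line per input library. On 3L the shW lines stay near 0 between 19 and 34 kb, where the shSov lines average 4.86 RPKM, and all 4 lines step up near 54 kb.

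The 3L tip was the one with a stretch of DNA that was nearly absent from 1 genotype. At 3L:19001-34000, 15 windows, the shW inputs held 6 and 4 reads and the shSov inputs 2065 and 1892 reads. The means were 0.0283 ± 0.00134 RPKM in shW and 4.86 ± 0.0963 in shSov (SD, n = 2). As a share of all reads, the shSov inputs held 171 times as many there as the shW inputs, with a 95% exact (Clopper-Pearson) interval of 92.8 to 357, which covers counting error only. The ChIP libraries moved with the input, with 11 and 1 reads in shW and 1592 and 577 in shSov, a ratio of 85.6 (48.9 to 166). Windows were tested at a mean input of at least 2 RPKM over the 4 inputs, so the 11 tested windows of this stretch were tested only through their shSov reads, and no test is read there. In the outermost 3L window with an input read in every library, at 25001 to 26000, the shW inputs held 2 and 1 reads and the shSov inputs 173 and 145.

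A window with at most 2 reads in each shW input and at least 2 RPKM in shSov was rare. There were 25 such windows on the 5 chromosome arms, and 13 of them lay in the 3L tip, with none in the tips of X, 2L, 3R or 2R. The reverse pattern, at most 2 reads in each shSov input and at least 2 RPKM in shW, was found in 0 windows. The shSov inputs were deeper, so the limit of 2 reads was stricter for them and the counts are not on one scale. Since the shW inputs held almost no reads in this stretch of 3L, H3K9me3 there can be described in shSov alone. Mean log2 enrichment over input there was 0.34 ± 0.03 (SD, n = 2), so the ChIP level of 6.50 ± 0.107 RPKM was above the input without reaching 2-fold.

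A second step in the 3L input was shared by all 4 libraries. Between 35001 and 54000 the mean input was 6.12 ± 0.0377 RPKM in shW and 5.09 ± 0.171 in shSov, and between 55001 and 100000 it was 12.5 ± 0.0777 and 10.8 ± 0.164 (SD, n = 2). The outer stretch held 0.490 and 0.490 of the inner level in the shW inputs and 0.479 and 0.467 in the shSov inputs. The stretch that was absent from shW stood at 0.453 and 0.450 of the inner level in shSov. Whether base composition or copy number moves with this step was not tested, and single windows spread widely around it, from 2.46 to 8.62 RPKM outside and from 4.67 to 20.2 inside.

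**Figure D2:**
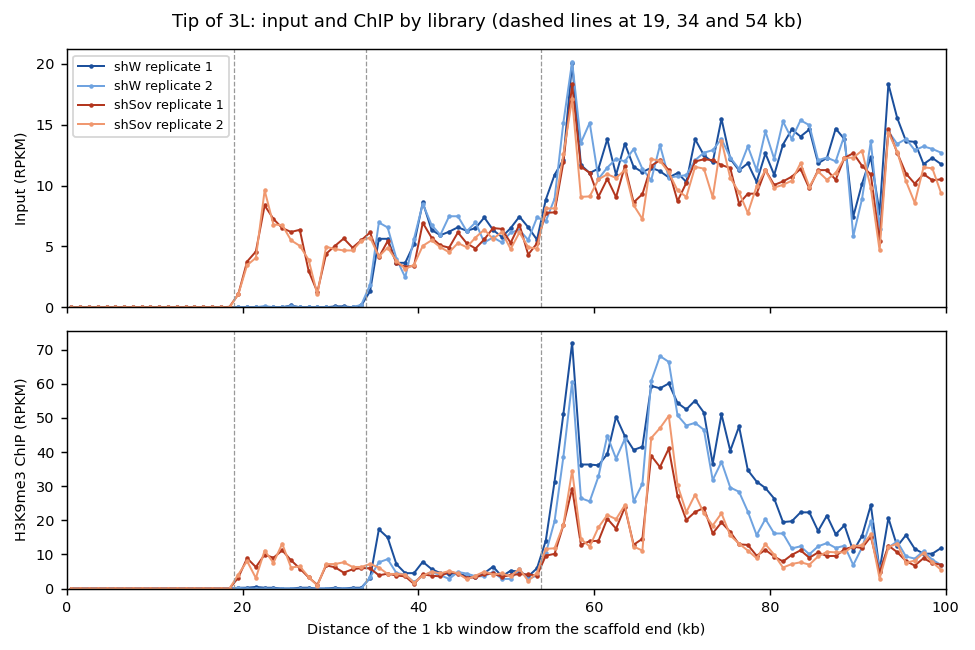
Input (upper panel) and H3K9me3 ChIP (lower panel) in RPKM for each 1 kb window of the 3L tip, against distance from the scaffold end, 1 line per library. Dashed lines mark 19, 34 and 54 kb; between 55 and 78 kb the shW ChIP lines lie above the shSov lines, at 43.6 against 21.7 RPKM on average.

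The other tips differed between genotypes less, and in both directions. On X at 10001 to 13000 the input was 2.71 ± 0.221 RPKM in shW and 5.54 ± 0.392 in shSov (SD, n = 2), a ratio of 2.07 with an exact interval of 1.76 to 2.43. All 3 windows passed edgeR's quasi-likelihood test of the inputs, with Benjamini-Hochberg adjustment over 117126 windows. On 2L at 5001 to 12000 it was 5.97 ± 0.373 and 8.0 ± 0.389, a ratio of 1.35 (1.26 to 1.45), and 4 of 7 windows passed. More windows passed further in on 2L. At 12001 to 13000 the inputs were 7.52 and 5.12 RPKM in shW and 10.84 and 13.17 in shSov (edgeR, adjusted p = 2.47e-05). At 14001 to 15000 they were 7.23 and 7.79 in shW and 11.77 and 11.84 in shSov (edgeR, adjusted p = 0.000571). The 2L windows at 15001, 18001 and 37001 also passed with more input in shSov. Those at 13001, 16001, 17001 and 19001 did not pass. The X and 2L spans were chosen after the inputs were seen, which favours windows that pass and ratios away from 1. Of all tested windows 3.67% passed with more input in shSov. In the 3R window nearest the end with reads, 27898001 to 27899000, the inputs were 2.63 and 2.25 RPKM in shW and 2.36 and 1.82 in shSov. Over the 4 tested windows of the outermost readable stretch of 3R, 27894001 to 27899000, the means were 7.09 ± 0.156 and 6.16 ± 0.405.

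Counted over the tips, 25 tested windows held more input in shSov and 49 held less. The 25 were 13 on 3L, 9 on 2L, 3 on X and 0 on 3R, or 7.72% of the tested tip windows, where 3.67% of all tested windows passed. The filter fixed the direction of 11 of the 13 on 3L. Without the 3L stretch nearly absent from shW, 14 windows held more input in shSov, or 4.47% of 313. The 49 were 19 on X, 17 on 3R, 12 on 3L and 1 on 2L, or 15.1%, where the figure over all windows was 4.36%. The second count rests on a small difference: on X between 19001 and 57000 the input was 11.3 ± 0.0225 RPKM in shW and 9.91 ± 0.245 in shSov. It fell to 1 with DESeq2, to 1 without shSov replicate 2 and to 7 without shSov replicate 1. Because input differed in this way, ChIP changes below are given relative to input and, for several windows and bins, also for the ChIP reads alone.

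H3K9me3 in the control was concentrated in a few blocks of each tip. A window was called enriched when its log2 enrichment, log2((ChIP RPKM + 1)/(input RPKM + 1)), was at least 1, that is 2-fold, in both replicates. In shW 42 tip windows were enriched, 19 on 3L, 9 on X, 8 on 2L and 6 on 3R. They made up 13% of the tested tip windows, beside 7.23% of all tested windows and 2.71% of the arms outside the tips and the proximal 1 Mb. In shSov 10 tip windows were enriched, 4 on 3L, 3 on X, 3 on 2L and 0 on 3R, or 3.09% beside 5.80% of all tested windows. All 10 were also enriched in shW, and 0 windows were enriched in shSov only. Over the genome 95.7% of the windows enriched in shSov were enriched in shW, so this overlap is near the background. In the single libraries 60 and 44 tip windows reached 2-fold in shW, or 18.5% and 13.6%, beside 9.68% and 7.78% of all tested windows. In shSov they were 11 and 20, or 3.4% and 6.17%, beside 6.13% and 6.83%.

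**Figure D3:**
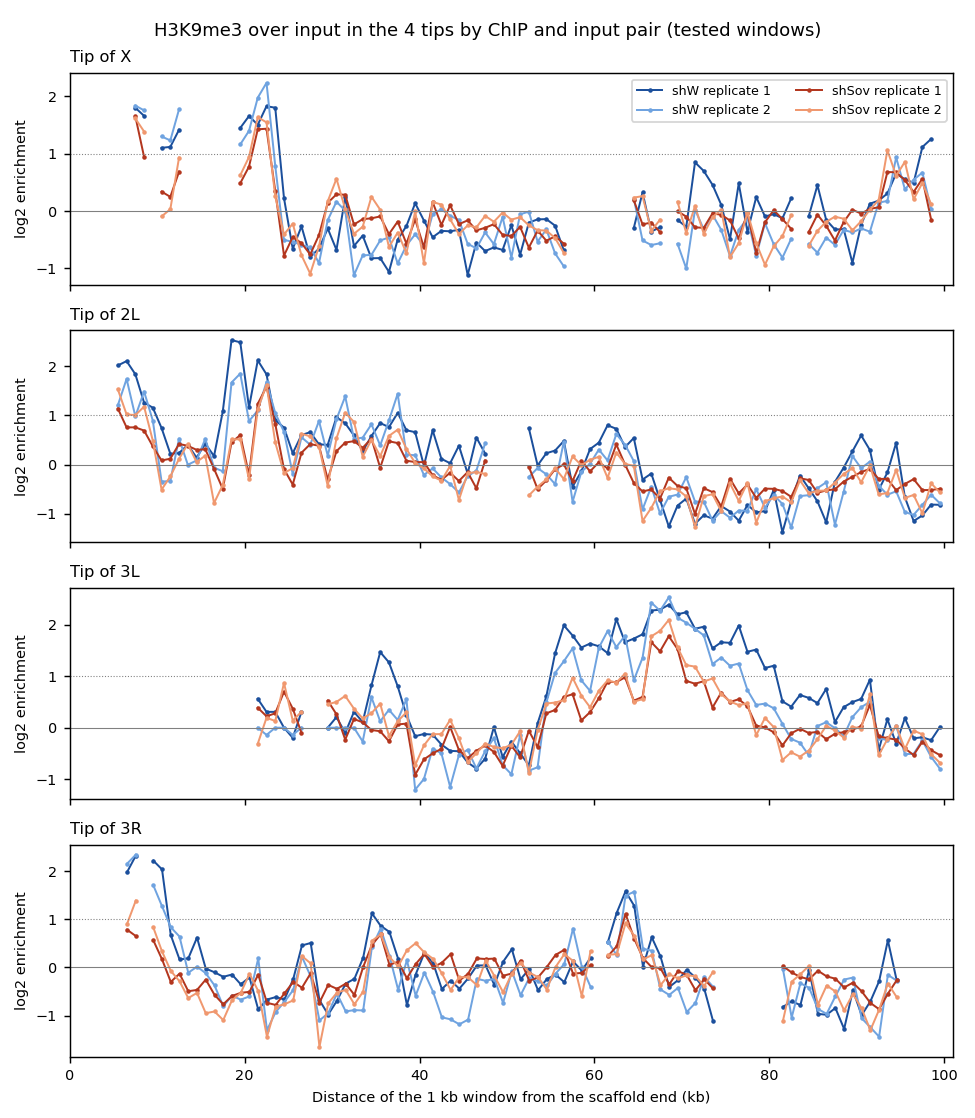
log2 enrichment of H3K9me3 over input for each tested 1 kb window against distance from the scaffold end, 1 panel per tip and 1 line per pair of ChIP and input; the dotted line marks 2-fold. Both control lines exceed 2-fold in short blocks on X, 2L and 3R and in most of a block of 23 windows on 3L, in 23 windows in shW replicate 1 and 19 in replicate 2.

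On X the control had 2 blocks, at 7001 to 13000 and at 19001 to 24000, separated by windows with too little input to test. Spans of blocks here were drawn from these profiles. The highest X windows in shW were 22001 to 23000, 7001 to 8000 and 21001 to 22000. At 22001 to 23000 the ChIP level was 36.6 and 44.8 RPKM in the shW replicates and 29.8 and 36.4 in the shSov replicates, on inputs of 8.71 to 11.8 RPKM. Its log2 enrichment was 1.83 and 2.24 in shW and 1.44 and 1.55 in shSov, so the groups did not overlap, but the change of -0.59 did not pass edgeR (adjusted p = 0.415). The window at 7001 to 8000 was at 1.80 and 1.84 in shW and 1.65 and 1.62 in shSov. Between 24 and 97 kb no tested X window reached 2-fold in either shW replicate, and at 97 kb shW stood at 1.12 and 0.67. The run of enriched windows nearest the X end closed at 8001 to 9000, with log2 enrichment of 1.66 and 1.76 in shW and 0.95 and 1.39 in shSov.

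On 2L the blocks lay at 5001 to 10000 and at 18001 to 23000. The first began in the outermost window with reads, 5001 to 6000, where log2 enrichment was 2.02 and 1.21 in shW and 1.14 and 1.53 in shSov, overlapping values. The 5 windows of this block had ChIP levels of 20.15 and 15.85 RPKM in shW, 14.82 and 17.48 in shSov. These also overlapped, on mean inputs of 5.75 RPKM in shW and 8.04 in shSov. The second held the 2 highest windows of the tip, 19001 to 20000 and 18001 to 19000, and mean enrichment over its 5 windows was 1.73 ± 0.42 in shW and 0.71 ± 0.03 in shSov (SD, n = 2). Its inner window at 22001 to 23000 was at 1.84 and 1.68 in shW and 1.58 and 1.63 in shSov, a difference of -0.16 in the edgeR fit with an adjusted p of 0.838.

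The widest block of the 4 tips was on 3L, at 55001 to 78000, just inside the second input step. Its 23 windows averaged 43.6 ± 4.82 RPKM in the shW ChIP libraries and 21.7 ± 1.52 in the shSov ChIP libraries, on inputs of 12.4 ± 0.197 and 10.7 ± 0.232 RPKM (SD, n = 2). In log2 enrichment this was 1.84 and 1.54 in the shW replicates and 0.79 and 0.93 in the shSov replicates. In 23 of the 23 windows the 2 shSov values were lower than either shW value. The same held for 12.1% of all tested windows and 58.8% of those enriched in shW over the genome. Among windows enriched in shW in the arms outside the tips and the proximal 1 Mb it held for 71.6%. The span was drawn from high shW values, which favours a fall. The peak of the block was at 68001 to 69000, with ChIP levels of 60.1 and 66.4 RPKM in shW and 41.1 and 50.6 in shSov. That window had log2 enrichment of 2.39 and 2.53 in shW and 1.78 and 2.09 in shSov. The neighbours at 66001 to 67000 and 67001 to 68000 were the next highest.

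A smaller rise in shW lay beside the edge of the missing DNA. At 35001 to 36000 shW replicate 1 had a log2 enrichment of 1.47 and replicate 2 of 0.12, against -0.07 and 0.47 in shSov. At 36001 to 37000 it was 1.27 and 0.35 in shW and -0.26 and -0.16 in shSov, and this window had the smallest p of the 3L tip (edgeR, log2 change -1.15, adjusted p = 0.0587; ChIP reads alone -1.40, adjusted p = 0.0019). The height of this rise therefore depended on shW replicate 1, the shallowest ChIP library.

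On 3R the outermost readable sequence carried the strongest enrichment. At 27894001 to 27899000, 4 tested windows, log2 enrichment was 2.14 and 1.87 in shW and 0.54 and 0.86 in shSov. The ChIP level was 29.0 ± 6.34 RPKM in shW and 9.79 ± 0.911 in shSov, on inputs of 7.09 ± 0.156 and 6.16 ± 0.405 (SD, n = 2). Enrichment dropped below 2-fold within 12 kb of the scaffold end. A second, lower block of 2 windows at 27840001 to 27842000 averaged 1.48 ± 0.07 in shW and 0.82 ± 0.05 in shSov.

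**Figure D4:**
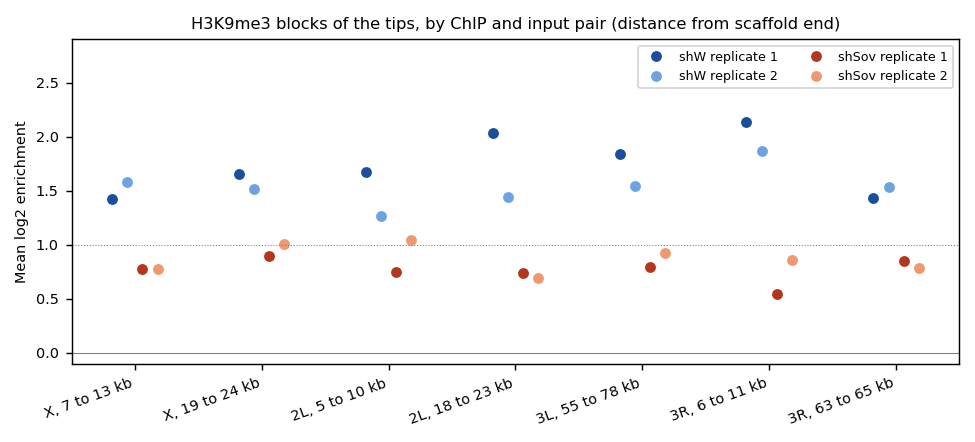
Mean log2 enrichment of the tested windows of each H3K9me3 block, 1 point per pair of ChIP and input; block spans on the x axis are distances from the scaffold end and the dotted line marks 2-fold. In each of the 7 blocks both shSov points lie below both shW points; the blocks were chosen for high shW values. In the blocks at 7 to 13 kb of X and 5 to 10 kb of 2L, ChIP RPKM overlapped between genotypes and input was higher in shSov.

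Over the 42 windows enriched in shW, mean log2 enrichment was 1.82 and 1.66 in the shW replicates and 0.85 and 0.98 in the shSov replicates. The 2 shSov values were lower than either shW value in 39 of the 42 windows, or 92.9%. The same held for 58.8% of the 8474 windows enriched in shW over the genome. In the arms outside the tips and the proximal 1 Mb it held for 71.6% of the 2951 windows enriched in shW. The remaining 3 of the 42 tip windows were 1 on X and 2 on 2L. These windows were picked for high shW values, which favours a fall, so the mean was also taken with the picking and the measurement in different shW replicates. Windows picked in shW replicate 1 and measured in replicate 2 (60 windows) gave a difference of -0.62. The 44 windows picked in replicate 2 and measured in replicate 1 gave -0.87. The same procedure over all tested windows gave -0.30 and -0.39.

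The change in enrichment was tested as the interaction of genotype and antibody in edgeR's quasi-likelihood fit, with Benjamini-Hochberg adjustment at 0.05 over all tested windows. In the tips 9 windows were lower in shSov, 4 on 2L, 4 on 3R, 1 on X and 0 on 3L, and 0 were higher. The 9 were 2.78% of the tested tip windows, where 0.595% of all windows were called lower and 0.264% higher. At an unadjusted p under 0.05, 62 tip windows were lower and 19 higher, or 19.1% and 5.86%, where 4.45% and 9.30% of all windows were. The count of 9 moved with single libraries: it rose on leaving out either shW replicate and fell on leaving out either shSov replicate. With limma on the log2 ratios 2 windows were called and with DESeq2 10. The shares of all windows called under these settings are not given here, so these counts show only dependence on the setting. In simulated counts the edgeR window test recovered 8% of 2-fold falls, so a window that was not called can still have changed.

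The strongest window changes were on 2L. At 19001 to 20000 the ChIP level was 30.9 and 19.3 RPKM in shW and 10.6 and 8.55 in shSov, with inputs of 4.61 to 6.65 RPKM. Log2 enrichment was 2.49 and 1.85 in shW and 0.60 and 0.51 in shSov, and the fitted change was -1.70 ± 0.28 (SE; edgeR, adjusted p = 0.000586). At 18001 to 19000 it was 2.53 and 1.67 in shW and 0.45 and 0.52 in shSov, a change of -1.88 ± 0.34 (edgeR, adjusted p = 0.0018). Input rose in that window too, from 3.07 and 2.56 RPKM to 5.22 and 5.20, and the ChIP reads alone fell by 1.06 on the log2 scale (edgeR, adjusted p = 0.0212). The adjacent window at 20001 to 21000 changed by -1.55 (edgeR, adjusted p = 0.0167). These groups did not overlap. At 6001 to 7000 the change was -1.16 (edgeR, adjusted p = 0.0188), but input was higher in shSov there and the ChIP reads alone changed by -0.61 with an adjusted p of 0.171.

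On 3R all 4 tested windows of the outermost block were called lower. At 27897001 to 27898000 the ChIP level was 15.7 and 13.9 RPKM in shW and 5.51 and 9.06 in shSov, and the enrichment changed by -1.62 ± 0.33 (SE; edgeR, adjusted p = 0.0075). At 27894001 to 27895000 the ChIP level was 67.5 and 39.5 RPKM in shW and 13.8 and 15.1 in shSov. Its change was -1.49 (edgeR, adjusted p = 0.0211), and the windows at 27895001 and 27898001 changed by -1.34 and -1.29. The ChIP reads alone were lower in shSov in these 4 windows too, by 1.1 to 1.89 on the log2 scale, with adjusted p-values of 0.0096 or less. With limma on the log2 ratios the 4 windows had adjusted p-values of 0.0710 to 0.0946.

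The call on X moved with the input. At 11001 to 12000 enrichment fell by 1.23 on the log2 scale (edgeR, adjusted p = 0.0221), from 1.12 and 1.23 in shW to 0.25 and 0.03 in shSov. The ChIP level in this window was 8.32 and 10.5 RPKM in shW and 8.72 and 7.35 in shSov, overlapping groups. Its input was 3.29 and 3.89 in shW and 7.19 and 7.17 in shSov. The neighbouring windows at 10001 and 12001 had changes of -1.27 and -1.09, which did not pass (edgeR, adjusted p = 0.111 and 0.0742), and the same difference in input. Over 10001 to 13000 the ChIP reads of the genotypes differed by a ratio of 0.911, with an exact interval of 0.786 to 1.06. On this stretch a loss of H3K9me3 per copy and a difference in which DNA the stocks carry cannot be told apart.

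Without a test, windows can also be counted by whether the groups overlap. Both shSov libraries had lower enrichment than either shW library in 108 tip windows, 37 on 3L, 36 on 2L, 20 on 3R and 15 on X. They made up 33.3% of the tested tip windows, beside 12.1% of all tested windows. Both were higher in 65 windows, 21 on X, 20 on 3R, 16 on 2L and 8 on 3L, or 20.1% beside 34.6% of all windows. On 3L the values of 11 windows have almost no shW reads behind them. Without these, 37 windows of the 66 on 3L were lower and 4 higher, and the counts over the 4 tips were 108 (34.5%) and 61 (19.5%). The median change was -0.47 on 3L (-0.45 without those 11 windows), -0.20 on 2L, 0.06 on 3R and 0.07 on X, where the median over all tested windows was 0.19. Relative to that median the X and 3R tips were also lower, although their own medians were above 0.

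For the ChIP reads alone, 45 tip windows were lower in shSov and 14 higher by edgeR. The 45 included 27 on 3L and 6 on each of the other 3 tips, and were 13.9% of the tested tip windows beside 3.19% of all. The 14 were 4.32% beside 2.84%, and 11 of them lay on 3L in the stretch whose DNA was nearly absent from the shW inputs, where the filter fixed the direction.

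Summing reads over 10 kb bins gave more depth per test. Of 36 tested bins in the tips, 4 were lower in shSov and 0 higher by edgeR with adjustment over 12261 bins. That was 11.1% of the bins, where 1.39% of all bins were called lower and 1.18% higher. At an unadjusted p under 0.05, 10 tip bins were lower and 3 higher, or 27.8% and 8.33%, where 5.75% and 19% of all bins were. DESeq2 called 9 tip bins lower, or 25%, beside 6.66% of all bins, and 0 higher, beside 1.35%. The bin at 20001 to 30000 of 3L, which lies in the stretch nearly absent from shW, is among the 36. The count of 4 rose on leaving out either shW replicate and fell on leaving out either shSov replicate. The median change was -0.16 over the 36 tip bins and 0.22 over all bins.

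**Figure D5:**
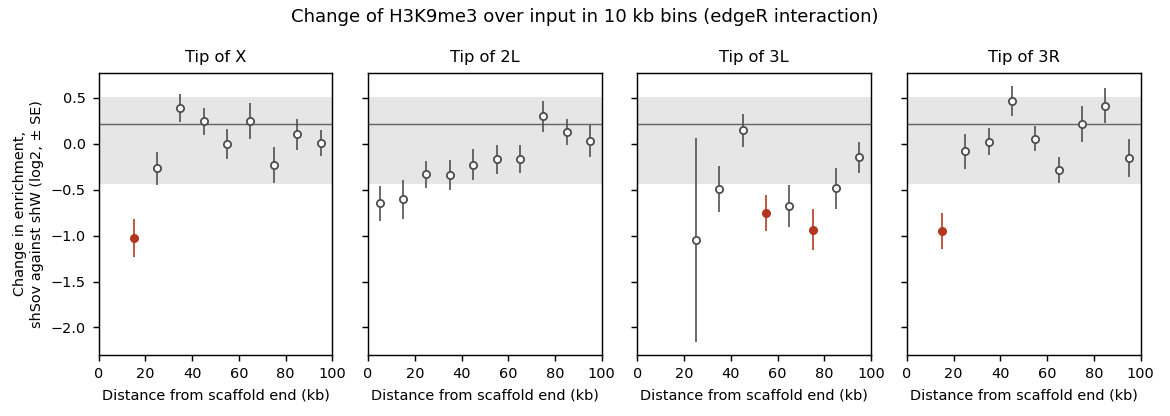
Change in H3K9me3 over input, shSov against shW, in 10 kb bins of each tip (log2, edgeR interaction; bars are ± SE), against distance from the scaffold end. Filled red points are the 4 bins called lower; the grey line is the median of all bins, 0.22, and the band runs from their 5th to their 95th percentile.

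The called bins were 1 on X, 1 on 3R and 2 on 3L. On 3R the bin at 27886001 to 27896000 changed by -0.95 ± 0.20 (SE; edgeR, adjusted p = 0.0129), with ChIP levels of 20.3 ± 3.96 RPKM in shW and 9.92 ± 0.436 in shSov (SD, n = 2). On 3L the bin at 70001 to 80000 changed by -0.94 ± 0.22 (edgeR, adjusted p = 0.0320), with log2 enrichment of 1.71 and 1.24 in shW and 0.53 and 0.64 in shSov. Its ChIP level was 37.9 ± 7.21 RPKM in shW and 17.0 ± 0.654 in shSov. The 3L bin at 50001 to 60000 changed by -0.75 ± 0.20 (edgeR, adjusted p = 0.0483). This call was lost with TMM factors (adjusted p = 0.063), with limma (0.148), with every library thinned to the smallest total (0.128), with a replicate block (0.0558) and with a block for each ChIP and its input (0.0509). On X the bin at 10001 to 20000 changed by -1.03 ± 0.20 (edgeR, adjusted p = 0.0093), and its ChIP reads alone by -0.46 with an adjusted p of 0.116, since it holds the stretch with more input in shSov. Thinning also lost this X bin (edgeR, adjusted p = 0.0708) and the 3L bin at 70001 to 80000 (0.0557), while the 3R bin still passed (0.0215). The ChIP reads alone were lower in 4 further bins whose change over input did not pass: X 70001 to 80000 (-0.65), 3L 60001 to 70000 (-0.85), 3L 80001 to 90000 (-0.71) and 3R 27836001 to 27846000 (-0.42). The bin at 1 to 10000 of 2L had a change of -0.65 that did not pass (edgeR, adjusted p = 0.0829).

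Taken whole, none of the 4 tips passed as a 100 kb segment among 1284 segments, of which 0.234% were called lower and 0.0779% higher by edgeR. The 3L tip had the largest change, -0.64 ± 0.12 (SE, adjusted p = 0.0641). It passed with TMM factors, at -0.77 (edgeR, adjusted p = 0.0464), and under other settings given at the end. The changes were -0.17 on 2L (adjusted p = 0.218), -0.17 on 3R (0.253) and -0.02 on X (0.907), and the median of all segments was 0.13. For the ChIP reads alone the 3L tip changed by -0.71, the 3R tip by -0.39 and the X tip by -0.24 (edgeR, adjusted p = 0.000813, 0.0075 and 0.0494).

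Mean log2 enrichment over the tested windows gave each tip a value per library. On 3L it was 0.68 and 0.33 in the shW replicates and 0.14 and 0.22 in the shSov replicates, a difference of -0.33. Leaving out the windows without input in one genotype made this -0.42. On 2L it was 0.19 and -0.01 in shW and -0.07 and -0.11 in shSov. Neither tip's groups overlapped, and p was 0.333 for both by a two-sided exact permutation test, the lowest that 2 against 2 allows. On 3R the values were -0.02 and -0.22 in shW and -0.13 and -0.23 in shSov, and on X 0.06 and -0.11 against -0.05 and -0.04. These groups overlapped (exact permutation p = 0.667 and 1.000). They no longer overlapped after centring on the distal autosomal arms, with differences of -0.28 on 3R and -0.24 on X, or against the mean of all 4 inputs, with -0.26 and -0.19 (exact permutation p = 0.333 in each case). Against the mean of all 4 inputs the 3L difference was -0.10 and its groups overlapped (exact permutation p = 1.000). That setting kept the 11 tested windows of the stretch nearly absent from shW. There a shW ChIP level near 0 was set against input that came almost only from shSov. After adjustment over the 4 tips the p-values were 0.666, 0.666, 0.889 and 1.000.

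The tip of 2R, outside the 4, had reads up to its end and was also lower in its outer bins. Its outermost bin changed by -1.02 (edgeR, adjusted p = 0.0026), with ChIP levels of 20.4 ± 3.11 RPKM in shW and 10.6 ± 0.772 in shSov on inputs of 8.32 ± 0.806 and 8.84 ± 0.0366 (SD, n = 2). The next bin changed by -0.60 (edgeR, adjusted p = 0.0284). As a whole segment it changed by -0.40 (edgeR, adjusted p = 0.151). Whether the changes differed between tips was not tested.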

How the data were processed

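Per the labels' protocols, ovaries were fixed, chromatin was sonicated, and libraries size-selected at 200 to 400 bp were sequenced as single reads of 50 nt. The submitters' processing notes name Bowtie, bedtools and build dm3. How reads that map to several places and duplicate reads were treated is not given in the sources used here. The authors deposited, for each 1 kb window and library, the raw read count and the RPKM. The deposited RPKM equalled the count scaled to window length and to the library's listed reads (largest relative deviation 4.9e-12), so input was not subtracted.

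A library whose title holds the word repeat was numbered replicate 2, and each ChIP was set against the input of its genotype and number. Windows were tested at a mean input of at least 2 RPKM, without the mitochondrial scaffold. edgeR 4.0.16 fitted genotype, antibody and their interaction to the counts of all 8 libraries, with library totals as offsets; input was tested on the 4 inputs. Bins needed 3 tested windows and segments 10, both counted from the telomere end. The SE is the fitted log2 change divided by the square root of F. Adjustment was by Benjamini-Hochberg and calls were made under 0.05. limma 3.58.1 and DESeq2 1.42.0 were alternatives, and scipy 1.17.1 gave exact tests. Ratios of read shares carry exact 95% intervals for counting error.

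Windows named in each tip were the 3 most enriched in shW, the 3 with the smallest interaction p, the outermost with input in every library, and the innermost of the outermost enriched run. Other windows, blocks and spans were chosen after their values were seen. The tips and lists were chosen with earlier results of these data known. The window fit was tested on simulated counts of 30000 windows. It recovered 8% of 2-fold falls, 10% of 2-fold rises, 82% of 4-fold falls and 98% of 4-fold rises, and 2.9% of its calls were false. Alternatives were other scalings, filters, pseudocounts, thresholds and tip lengths, thinning to the smallest library total, leaving out libraries and blocks. No sequence is shown.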

Additional observations from a re-analysis of the deposited data

How the results depend on the processing

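With 2 libraries a group, single libraries decided the counts of calls. Leaving out 1 library gave 0 to 62 windows lower (9 with all) and 0 to 3 higher (0 with all). It gave 0 to 18 bins lower (4) and 0 to 4 higher (0), 1 to 61 windows with less input in shSov (49) and 16 to 31 with more (25). Using 1 shSov replicate, 11 or 20 windows were enriched in shSov (10). The tips as segments ranged from -0.12 to 0.0854 on X, -0.27 to -0.0692 on 2L, -0.81 to -0.47 on 3L and -0.31 to -0.0252 on 3R. Past the threshold were 2L and 3R without shW replicate 2, and 3L without either shW replicate or shSov replicate 2. Mean differences ranged from -0.0987 to 0.0696 on X, -0.28 to -0.0848 on 2L, -0.50 to -0.15 on 3L and -0.16 to 0.0471 on 3R. The cause was not tested. Counts here and in the next paragraph that lack a share of all windows or bins show dependence on the setting. They do not compare the tips with the genome.

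Windows called lower were 2 with limma, 15 when every window with a read was tested, 45 from ChIP reads alone and 1 after thinning every library to the smallest total, 4208693 reads; windows higher were 14 from ChIP reads alone. Bins lower were 9 with DESeq2, 7 from ChIP reads alone and 2 after thinning. From ChIP reads alone 1 bin was higher, at 20001 to 30000 of 3L. This bin and 11 of the 14 higher windows lie in the stretch nearly absent from shW, where the filter fixed the direction. The 3L segment passed with TMM factors (-0.77), DESeq2 (-0.79), limma (-0.33), every window with a read (-0.64), ChIP reads alone (-0.71), thinning (-0.63), and without windows of unequal input (-0.66), a setting added after seeing the data. With all libraries, also past the threshold were 2L and 3R with DESeq2 (-0.32 and -0.32) and X and 3R from ChIP reads alone (-0.24 and -0.39). Without windows of unequal input the X segment was 0.0065 and the X mean difference 0.0357. A tip of 50 kb gave a mean difference of 0.035 on 3L and a tip of 200 kb 0.0423 on 3R. The 50 kb tip of 3L had 27 tested windows. It includes the stretch nearly absent from shW and leaves out the block at 55001 to 78000. Enriched windows in shW were 18 at 3-fold, and in shSov 32 at 1.5-fold and 3 at 3-fold. Windows with less input were 1 and with more input 15 under DESeq2, and 14 held more input without the 3L stretch nearly absent from shW, a setting added after seeing the data. The median change over all windows was 0.19, and 0.05 with TMM factors, 0.10 after centring on the distal autosomal arms and -0.01 with DESeq2.

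The replicate numbers did not pair the samples: same-numbered deviations correlated at -0.03. A replicate block left 9 windows lower and 0 higher, 3 bins lower and 0 higher, and 43 and 25 windows with less and more input. A block for each ChIP with its input, added later, also gave 9 and 0 windows and 3 and 0 bins. Both blocks lost the 3L bin at 50001 to 60000.

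Depth limits the single windows: the median window held 21 reads in shW ChIP replicate 1.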
